A study of Rattus norvegicus with 6 samples.

Results

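Complement components and their regulators were examined in rat RA-FLS. The genes were taken by name from the deposited count table: C3, C1r, C1s, C2, C4a, Cfb, Cfd, Serping1 and Cd55. The rule was the gene name alone. These 9 genes filled 10 of the 34156 rows, because Cfb was listed as 2 gene models. RA-FLS are fibroblast-like synoviocytes, the lining cells of the joint, and the labels give their genotype as WT and rheumatoid arthritis (RA) as the disease state. All cultures received 10 ng/mL TNF-α, an inflammatory cytokine. The 3 libraries of the TNF-α group had no further treatment, and the 3 libraries of the TNF-α+EMO group also received 80 μmol/L EMO (emodin, an anthraquinone from rhubarb). The labels give day 5 for both groups, whereas the methods of the study describe a shorter incubation. The cells were purchased as a cell line, and no group without TNF-α was sequenced, so the effect of TNF-α itself could not be examined.

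Complement is a cascade of plasma proteases that marks surfaces for clearance. In the classical pathway C1q binds its target and activates the protease C1r, which activates C1s, and C1s cleaves C4 and C2 to form a C3 convertase. In the alternative pathway factor B (Cfb) and factor D (Cfd) build another C3 convertase, and both routes meet at C3. The C1 inhibitor Serping1 blocks C1r and C1s, and Cd55, the decay-accelerating factor on the cell surface, breaks up the convertases. The liver makes most of the circulating proteins, and synovial fibroblasts are known as a local source in inflamed joints.

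The libraries held 16813322 to 17794455 counts. Each gene was compared between the groups with edgeR (quasi-likelihood test), and p-values were adjusted by Benjamini-Hochberg over the 13614 genes that reached 10 counts in 3 or more libraries. Genes were called DEGs where the adjusted p was under 0.05 and the log2 fold change beyond 1 in either direction, and positive values are higher with EMO. The labelled cell type was checked against 12 fibroblast markers. Col1a1, Vim and Pdgfra were abundant in the TNF-α group, whereas Thy1, Prg4 and Pdpn, which mark synovial fibroblasts, held at most 7 counts in any library. The summed normalized count of the 12 markers was 200671 to 220782 under TNF-α alone and 35161 to 37832 with EMO added, and 7 of the 9 tested markers were lower and 1 was higher as DEGs, beside 27.8% lower and 19.5% higher among all genes tested. Of the 9 tested markers, 2 reached 10 counts only under TNF-α alone and 1 only with EMO added. By the filter, these could enter the test only with a difference. In bulk RNA, fewer cells of a type and less RNA per cell cannot be told apart. The part of the marker change in the values that follow was not tested.

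Of the 9 genes, 5 could be tested, and 4 were lower and 1 was higher with EMO as DEGs. Among all genes tested, 27.8% were lower and 19.5% were higher by the same rule, and 80.9% passed the adjusted p alone in either direction. C3 and C2 reached 10 counts in no TNF-α+EMO library, so by the filter they could enter the test only with a difference, and the count of calls is a description. The median log2 fold change over the 5 tested genes was -6.00, beside -0.01 over all genes tested. In all 5 genes the groups did not overlap, which was also the case for 82.9% of all genes tested. The other 4 genes had few or no counts in both groups, with at most 25 counts in any library.

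**Figure D1:**
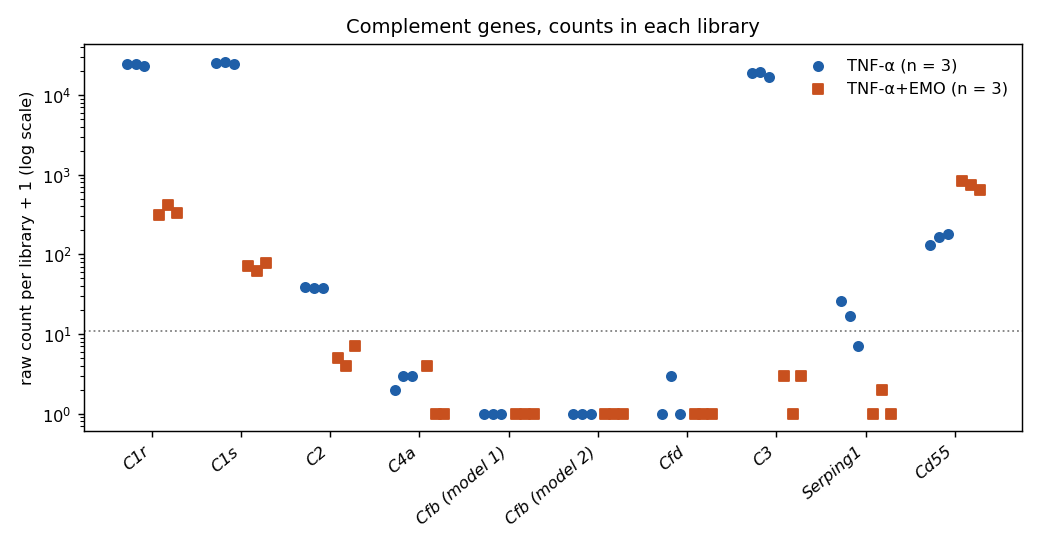
Raw counts plus 1 on a log axis for the 9 complement genes, with Cfb shown as its 2 gene models. Each point is 1 library, circles are TNF-α and squares TNF-α+EMO, and the dotted line marks the filter of 10 counts. C1r, C1s and C3 held at least 16627 counts under TNF-α alone and at most 417 with EMO added, and Cd55 was the gene with the higher counts with EMO.

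C1r, the protease that is activated first in the C1 complex, had 24255, 24494 and 22809 counts under TNF-α alone and 314, 417 and 332 with EMO added. The groups lay far apart, and TNF-α+EMO replicate 2 was the highest of its group. Its normalized count fell from 23299 ± 936 to 363 ± 55.7 (SD, n = 3 each), or 64.2-fold (log2 fold change -6.00, standard error 0.11, edgeR adjusted p = 6.0e-12). C1s, which C1r activates and which cleaves C4 and C2, had 25350, 26175 and 24317 counts with TNF-α and 71, 61 and 77 with EMO added. Here TNF-α+EMO replicate 2 was the lowest of its group. C1s fell 345-fold (log2 fold change -8.43, standard error 0.09, edgeR adjusted p = 8.1e-13).

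The genes lie on chromosome 4 in the deposited coordinates of build Rnor_6.0, C1r (ENSRNOG00000011796) from 157125998 to 157136829 on the plus strand and C1s (ENSRNOG00000011971) from 157143592 to 157155609 on the minus strand. They are separated by 6763 bases and overlap no other listed gene. Per deposited gene length, both were expressed at nearly the same level in the TNF-α group, at 490 ± 19.7 and 476 ± 17.9 CPM per kilobase (CPM divided by gene length), above 99.1% and 99.0% of all genes tested. The proteases are known to assemble in equal numbers in C1, but these values are RNA levels and protein was not measured in these libraries. The ratio of C1s to C1r per length was 0.959, 0.981 and 0.979 under TNF-α alone and 0.208, 0.134 and 0.213 with EMO added. The ratio did not overlap between the groups, and the difference had the smallest p that an exact two-sided permutation test of 3 against 3 libraries can give (p = 0.1). A p under 0.05 cannot be reached with 3 libraries per group. With EMO C1s stood at 1.38 ± 0.158 and C1r at 7.63 ± 1.17 CPM per kilobase.

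C3, whose cleavage is the common step of every complement pathway, had 18646, 19607 and 16627 counts under TNF-α alone and 2, 0 and 2 with EMO added. It was therefore abundant in each TNF-α library and at the edge of detection in each TNF-α+EMO library. The ratio of the summed counts, scaled for depth, was 13081 (95% exact interval 5109 to 48013, which covers counting error only, since PCR copies cannot be told from separate molecules). The fitted log2 fold change was -13.55 (standard error 0.19, edgeR adjusted p = 1.6e-12), and 5 of all genes tested had a lower value. With so few counts in one group, this fitted value depends on the small count that edgeR adds. Its standard error is derived from the test statistic and is too narrow beside the exact interval of the ratio. C3 (ENSRNOG00000046834) lies on chromosome 9 from 9721105 to 9747167 and overlaps no other listed gene. Together, C1r, C1s and C3 took 0.402%, 0.414% and 0.379% of all counts under TNF-α alone and 0.00225%, 0.00275% and 0.00231% with EMO added.

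**Figure D2:**
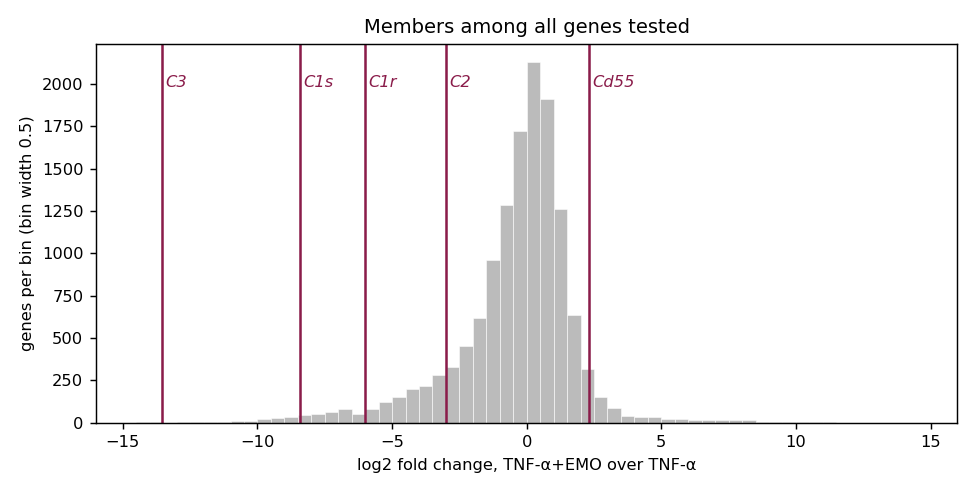
Number of genes per bin of log2 fold change (TNF-α+EMO over TNF-α, bin width 0.5) over the 13614 genes tested, with a line at each of the 5 tested complement genes. C3, C1s, C1r and C2 lay in the lower tail at -13.55, -8.43, -6.00 and -3.00, and Cd55 in the upper tail at 2.31.

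C2, the protease of the classical C3 convertase, had far fewer counts than C1r and C1s, with 38, 37 and 37 under TNF-α alone and 4, 3 and 6 with EMO added. The groups did not overlap. C2 fell 8.02-fold (log2 fold change -3.00, standard error 0.36, edgeR adjusted p = 1.6e-05), and the 95% exact interval of the ratio of counts, for counting error only, was 4.61 to 15.9. The gene (ENSRNOG00000051235) lies on chromosome 20 from 4542340 to 4561152 on the minus strand. Factor B, which plays the part of C2 in the alternative pathway, lies beside it and had 0 counts in every library for both of its gene models. The longer model (ENSRNOG00000000419, 4536203 to 4561066) overlaps 4 other rows of the table, among them C2, the shorter Cfb model (ENSRNOG00000051158, 4536212 to 4542073) and Nelfe. How the authors' counting treated reads that match several models is not given in the sources used here, so the zeros of Cfb do not show that it was not expressed, and the counts of C2 are uncertain for the same reason.

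C4a (ENSRNOG00000047657, chromosome 20 from 2651599 to 2678141), the other substrate of C1s, had 1, 2 and 2 counts under TNF-α alone and 3, 0 and 0 with EMO added. C4b, a near-identical copy between which reads could have been split, had 4, 2 and 4 counts with TNF-α and 0, 0 and 2 with EMO. C4b overlaps LOC103689965, which had 11, 2 and 6 counts with TNF-α and 6, 8 and 8 with EMO, so the counts of C4b are uncertain. At this depth no difference was detectable for C4a. Factor D, the adipsin of fat cells and the protease that cleaves factor B, had 0, 2 and 0 counts under TNF-α alone and 0 in each TNF-α+EMO library. A count of 0 in a library allows up to 3 counts, and C4a and Cfd had no more than that in any library. For Cfb this bound does not hold, since the counting of its overlapping gene models is not known. Cfd (ENSRNOG00000033564) lies on chromosome 7 from 12634216 to 12635943 and overlaps Arhgap45. The 6 fat cell markers summed to 41.0 to 69.6 normalized counts under TNF-α alone and 6.19 to 14.3 with EMO added. Under TNF-α alone the sum came mostly from Fabp4 and Cidec. Fabp4 had 51, 19 and 50 counts under TNF-α alone and 2, 5 and 5 with EMO added. Cidec had 15, 17 and 13 counts under TNF-α alone and 0 in each TNF-α+EMO library. Both were lower as DEGs, beside 27.8% of all genes tested. Neither reached 10 counts in any TNF-α+EMO library, so by the filter they could enter the test only with a difference. The defining fat cell markers Adipoq, Plin1, Lep and Lpl held at most 6 counts. The 5 liver cell markers summed to 1004 to 1085 normalized counts under TNF-α alone and 2515 to 2562 with EMO added, nearly all from Tf, and Alb, Fgb, Ttr and Apoa1 held at most 6 counts. The part of these markers in the values of Cfd was not tested.

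Serping1 (ENSRNOG00000007457, chromosome 3 from 72161189 to 72171078), the C1 inhibitor, had 25, 16 and 6 counts under TNF-α alone and 0, 1 and 0 with EMO added. The TNF-α libraries were all higher and differed widely among themselves, at 15.3 ± 9.34 normalized counts (SD, n = 3). The gene reached 10 counts in 2 libraries and was therefore not tested. The ratio of counts was 44.8, with a 95% exact interval of 7.66 to 1807 for counting error only. Without the filter on low counts, its log2 fold change was -5.05 (standard error 0.95, edgeR adjusted p = 6.8e-05). Per length, Serping1 stood at 0.472 ± 0.288 CPM per kilobase in the TNF-α group, far below its target proteases C1r and C1s.

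Cd55 changed the other way. It had 129, 164 and 177 counts under TNF-α alone and 827, 739 and 649 with EMO added. Every TNF-α+EMO library was higher than every TNF-α library. Cd55 rose 4.94-fold, from 153 ± 23.7 to 757 ± 96.0 normalized counts (SD, n = 3 each), and the log2 fold change was 2.31 (standard error 0.14, edgeR adjusted p = 3.6e-08). Of all genes tested, 601 had a higher value. The gene (ENSRNOG00000003927) lies on chromosome 13 from 47126741 to 47154292 on the minus strand and overlaps no other listed gene.

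Per length, the order of the levels in the TNF-α group was C1r, C1s, C3 at 200 ± 16.9 and Cd55 at 2.88 ± 0.447 CPM per kilobase (SD, n = 3). C2 followed at 0.815 ± 0.0156 and Serping1 at 0.472 ± 0.288. C1s was slightly below C1r in each TNF-α library, at a ratio of 0.973 ± 0.0118. The level of C2 is uncertain in both groups, since its gene model overlaps that of Cfb. With EMO the order was Cd55 at 14.2 ± 1.81, C1r at 7.63 ± 1.17, C1s at 1.38 ± 0.158 and C2 at 0.0992 ± 0.0345 CPM per kilobase. The remaining genes were at or under 3 counts per library.

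C3, C1r and Cd55 are shown by the 250 bases before their RefSeq start sites (build GRCr8), since they are the most abundant genes with a promoter in the RefSeq table and include both directions of change. The table held promoters for 5 of the 9 genes. Each sequence runs 5′ to 3′ along the strand of the gene, and capitals mark matches to TTNNGNAA, letters that C/EBP factors can bind, on either strand.
C3, chr9:2201340-2201589, minus strand: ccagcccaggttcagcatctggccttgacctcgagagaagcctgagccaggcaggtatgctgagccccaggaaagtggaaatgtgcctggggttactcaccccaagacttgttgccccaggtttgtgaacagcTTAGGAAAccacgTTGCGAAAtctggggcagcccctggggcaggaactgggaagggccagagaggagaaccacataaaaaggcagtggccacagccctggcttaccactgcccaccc
C1r, chr4:159098763-159099012, plus strand: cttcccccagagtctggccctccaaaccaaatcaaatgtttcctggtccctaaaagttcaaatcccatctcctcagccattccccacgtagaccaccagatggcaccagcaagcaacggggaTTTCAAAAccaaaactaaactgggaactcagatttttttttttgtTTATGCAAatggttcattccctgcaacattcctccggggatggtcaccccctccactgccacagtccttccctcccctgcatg
Cd55, chr13:44438102-44438351, minus strand: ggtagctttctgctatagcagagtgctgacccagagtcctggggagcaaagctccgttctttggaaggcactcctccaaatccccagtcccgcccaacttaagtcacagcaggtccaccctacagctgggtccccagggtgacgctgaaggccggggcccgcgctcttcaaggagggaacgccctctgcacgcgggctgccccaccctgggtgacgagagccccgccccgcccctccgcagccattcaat

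C3 held TTAGGAAA and TTGCGAAA, the latter matching on both strands and starting 104 bases before the start site. C1r held TTATGCAA on the plus strand and TTTTGAAA on the minus strand. No match lay in this window of Cd55, whose RefSeq start site is 812 bases inside the outermost end of the gene. Of all 33469 promoters of this length, 37.2% held a match, so the motif is common. The kappaB motif and GAAANNGAA (the letters of interferon response elements) had no match in these 3 windows, and were found in 6.33% and 8.12% of all promoters. Both strands were searched, and overlapping matches were kept. A match describes letters and not binding.

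Transcription factors known to drive complement genes were also measured. Of 8 such factors, all were tested, 2 were lower as DEGs, 6 were lower by the adjusted p alone and none was higher. The count of DEGs is near the share over all genes tested, 27.8% lower. By the adjusted p alone, 5642 of the 13614 genes tested were lower and 5366 higher, or 80.9% in either direction. With only 8 factors, these counts are a description and say nothing particular to the factors. Their log2 fold changes ranged from -2.30 to 0.10 around a median of -0.81. The DEGs were Irf1, a factor of interferon responses (log2 fold change -1.38, standard error 0.07, edgeR adjusted p = 5.9e-09), and Cebpd, a C/EBP factor (log2 fold change -2.30, standard error 0.34, edgeR adjusted p = 1.3e-04). Cebpb passed the adjusted p at -0.71 (standard error 0.12) without reaching the fold change threshold. The same held for Stat3, at -0.97 (standard error 0.05, edgeR adjusted p = 1.9e-08). The NF-κB subunits were divided. Nfkb1 was lower at -0.91 (standard error 0.06, edgeR adjusted p = 1.5e-07) and Relb at -0.39 (standard error 0.08, edgeR adjusted p = 9.9e-04), both short of the fold change threshold. Rela and Nfkb2 did not pass, at 0.10 (standard error 0.06, edgeR adjusted p = 0.13) and 0.08 (standard error 0.07, edgeR adjusted p = 0.29), and with scaling by library totals alone these values were -0.01 and -0.03.

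The other genes of the pathway came from a list of 49, of which 46 were in the table and 17 were tested. By edgeR's test, 8 of them were lower and 4 higher as DEGs, against 27.8% lower and 19.5% higher among all genes tested, and the median log2 fold change was -0.94. Among the 17, 3 reached 10 counts only under TNF-α alone and 2 only with EMO added. Of the 46, 14 had 0 counts in every library. These included C1qa, C1qb and C1qc, the chains of the recognition molecule that carries C1r and C1s, and the lectin Mbl1.

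Masp1, a protease of the lectin pathway, followed the same direction as C1r and C1s. Its normalized count fell from 1591 ± 9.0 to 6.48 ± 3.28 (SD, n = 3 each; log2 fold change -7.91, standard error 0.17, edgeR adjusted p = 1.5e-11). The ratio of the summed counts was 245, with a 95% exact interval of 157 to 408 for counting error only. This is wider than the standard error implies. C1rl, a C1r-like protease whose gene lies 2552 bases from C1r, fell from 951 ± 35.5 to 63.8 ± 20.8 normalized counts, and its log2 fold change was -3.90 (standard error 0.17). The ratio of C1rl to C1r per length was 0.0468 to 0.0496 under TNF-α alone and 0.159 to 0.237 with EMO added (exact two-sided permutation p = 0.1, the smallest possible).

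**Figure D3:**
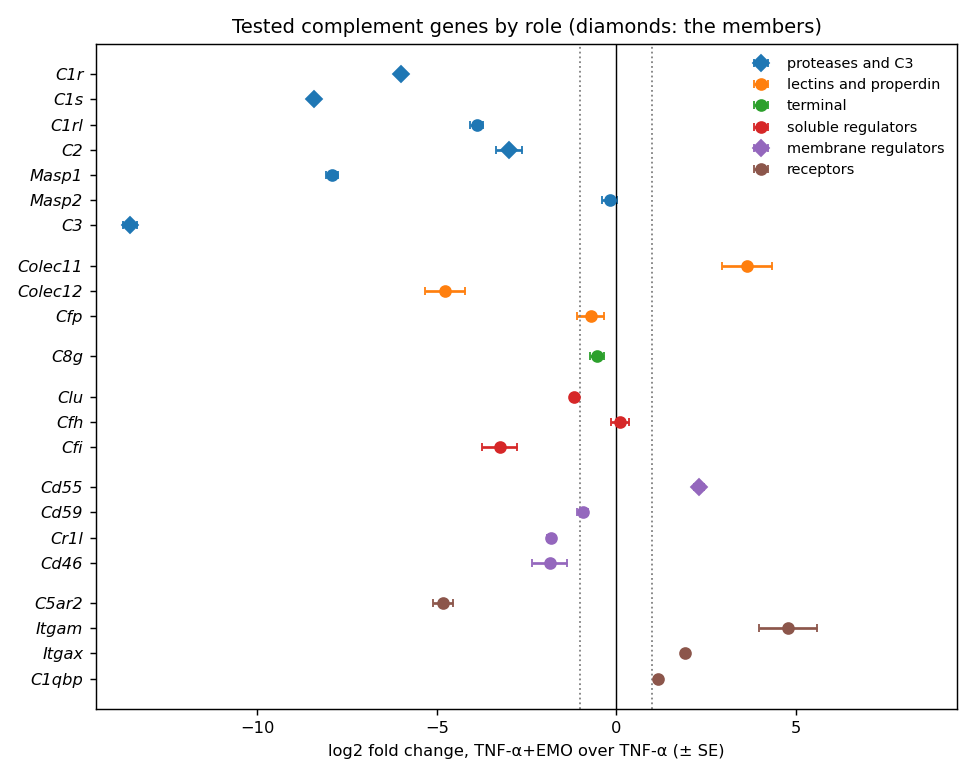
Log2 fold change (TNF-α+EMO over TNF-α) with its standard error for the 5 tested members, drawn as diamonds, and the 17 other tested complement genes, drawn as circles and coloured by role. The dotted lines mark the threshold of 1 in both directions. Of the tested proteases and C3, all but Masp2 were beyond the lower line, and of the 4 membrane regulators Cd55 alone lay above the upper line.

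The membrane attack complex, the end product of the cascade, was hardly represented. C5, C6, C7, C8a and C8b held at most 4 counts in any library, and C9 at most 12. C8g, a lipocalin of this complex, was at 115 ± 19.9 normalized counts with TNF-α and 78.9 ± 11.3 with EMO, and the log2 fold change was -0.54 (standard error 0.20, edgeR adjusted p = 0.029). This pass was lost without TNF-α replicate 1 (adjusted p = 0.084, or 0.14 over the same tested genes), TNF-α+EMO replicate 2 (0.077 or 0.062) or TNF-α+EMO replicate 3 (0.078 or 0.060). C8g overlaps Fbxw5, which had up to 2120 counts, so its own counts are uncertain. Clusterin (Clu), a soluble inhibitor of the attack complex, fell from 5064 ± 250 to 2247 ± 112 normalized counts (log2 fold change -1.17, standard error 0.06, edgeR adjusted p = 2.1e-08).

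The membrane regulators were divided. Cr1l, the Crry regulator of rodents, fell from 1536 ± 74.1 to 434 ± 68.5 normalized counts (log2 fold change -1.82, standard error 0.11, edgeR adjusted p = 3.4e-08). Cd59, which blocks the attack complex, fell from 246 ± 23.4 to 128 ± 21.1 normalized counts (log2 fold change -0.94, standard error 0.16, edgeR adjusted p = 2.1e-04), short of the fold change threshold. Cd46, named here after its values were seen, was lower by the same test (log2 fold change -1.86, standard error 0.49, edgeR adjusted p = 0.0046). Summed per length, the level of Cd55, Cd59, Cr1l and Cd46 was 52.9, 56.8 and 50.5 CPM per kilobase under TNF-α alone and 32.0, 30.4 and 29.9 with EMO added. The share of Cd55 in this sum was 4.50%, 5.30% and 6.42% with TNF-α and 50.2%, 46.8% and 41.6% with EMO. The sum was thus lower and the Cd55 share higher in each TNF-α+EMO library (exact two-sided permutation p = 0.1 for both, the smallest possible). Both restate the changes of the single genes given above, so these tests add no separate support.

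**Figure D4:**
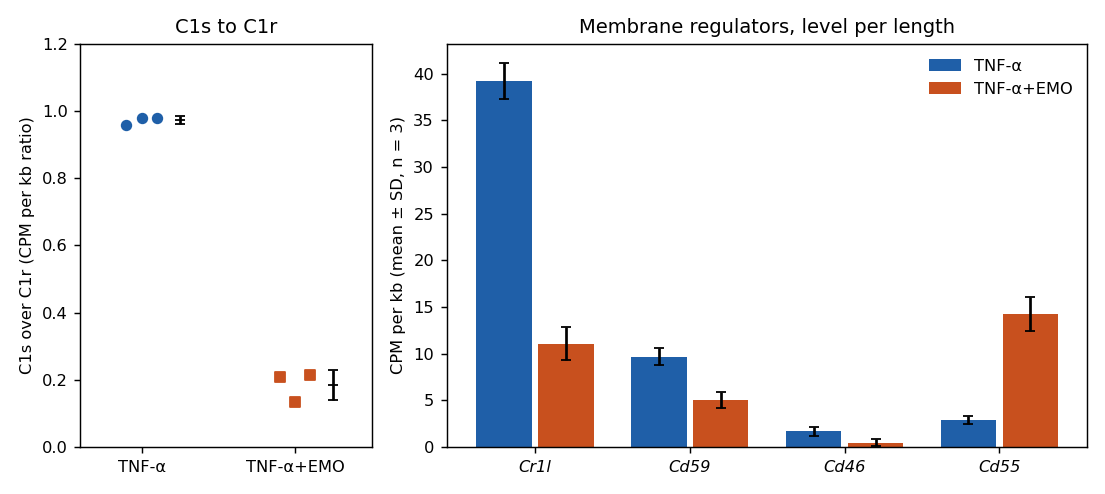
Left, the ratio of C1s to C1r per length in each library, with the mean and SD of each group (n = 3). Right, the mean level per length of 4 membrane regulators in CPM per kilobase with SD (n = 3). The ratio was 0.973 ± 0.0118 with TNF-α and 0.185 ± 0.0439 with EMO, and Cd55 passed from 2.88 to 14.2 CPM per kilobase while Cr1l, Cd59 and Cd46 were lower.

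Complement receptors moved in both directions. C5ar2, a receptor for the C5a fragment, fell from 188 ± 12.9 to 6.48 ± 2.93 normalized counts (log2 fold change -4.83, standard error 0.29, edgeR adjusted p = 4.3e-08). C5ar2 reached 10 counts in no TNF-α+EMO library, so by the filter it could enter the test only with a difference. C1qbp, a mostly mitochondrial protein that also binds C1q, rose from 2163 ± 36.3 to 4838 ± 137 normalized counts (log2 fold change 1.16, standard error 0.06, edgeR adjusted p = 6.9e-09). Itgax, the alpha chain of a receptor for C3 fragments, rose from 475 ± 23.3 to 1794 ± 21.4 normalized counts (log2 fold change 1.92, standard error 0.07, edgeR adjusted p = 7.7e-10). Its partner chain Itgb2 held at most 6 counts in any library, and the gene model of Itgam spans Itgax, so both alpha chains are uncertain. The leukocyte markers Ptprc, Adgre1, Cd163 and Tyrobp held at most 3 counts, and the 9 macrophage markers summed to 1203 to 1306 normalized counts with TNF-α and 734 to 804 with EMO, nearly all from Cd14 and Cd68. These went opposite ways, Cd14 from 1093 ± 57.8 to 510.3 ± 41.2 normalized counts (log2 fold change -1.10, standard error 0.09) and Cd68 from 153 ± 14.7 to 256 ± 11.3 (log2 fold change 0.75, standard error 0.13, edgeR adjusted p = 2.4e-04). Their part in the change of the receptors was not tested.

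The position of the genes was also considered. Within 100 kb of C3, 2 neighbours were tested and neither was a DEG. Gpr108, 6350 bases away, differed by 0.77 on the log2 scale (standard error 0.08), against -13.55 for C3. Around C1s, 4 of 6 tested neighbours were lower as DEGs and none was higher, beside 27.8% and 19.5% of all genes tested. Besides C1rl these included Lpcat3 at -1.47 on the log2 scale (standard error 0.06) and Ptpn6 at -3.33 (standard error 0.32). The other was Clstn3, with 34, 15 and 28 counts under TNF-α alone and 0, 3 and 3 with EMO added. Clstn3 reached 10 counts in no TNF-α+EMO library, so by the filter it could enter the test only with a difference. The remaining neighbours, Phb2 and Emg1, were higher by the adjusted p alone, at 0.62 (standard error 0.09, edgeR adjusted p = 9.4e-05) and 0.30 (standard error 0.08, edgeR adjusted p = 0.0037). Lpcat3 and Emg1 overlap each other, so the counts of both are uncertain. Around C2, which lies in the class III region of the MHC, 1 of 8 was lower and 4 were higher. Zbtb12 was lower (log2 fold change -1.72, standard error 0.14), whereas Dxo, Neu1, Nelfe and AABR07044389.1 were higher, with log2 fold changes of 1.95, 1.35, 1.15 and 1.88. Around Serping1, 2 of 8 tested neighbours were lower as DEGs and 1 higher, and the largest decrease was that of Ube2l6, an interferon-induced ubiquitin enzyme, at -4.41 (standard error 0.11). With so few neighbours per gene, these counts are a description.

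**Figure D5:**
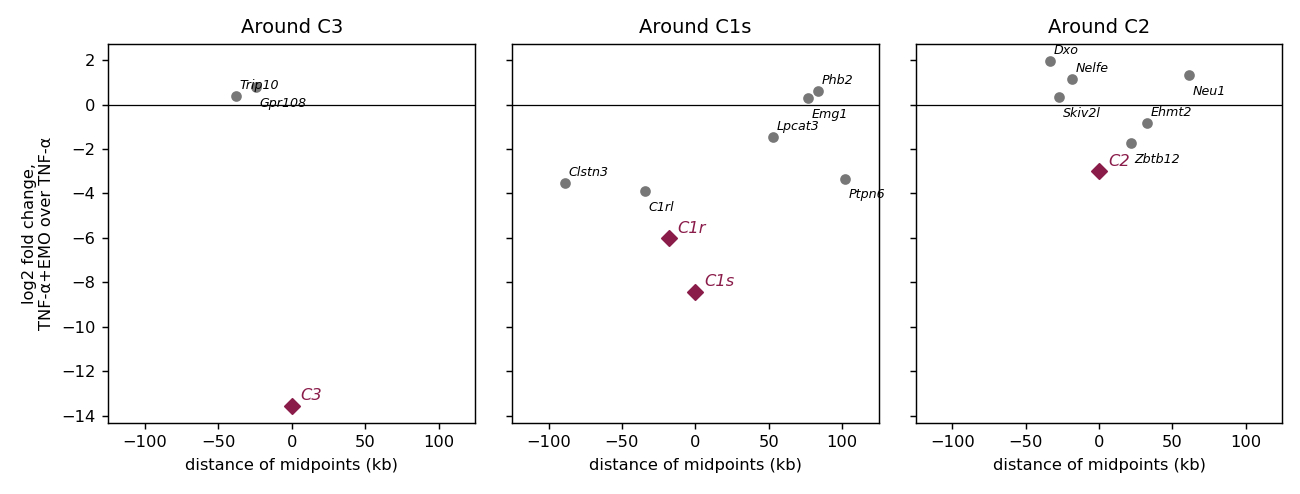
Log2 fold change (TNF-α+EMO over TNF-α) of the tested named genes within 100 kb of C3, C1s and C2, against the distance between gene midpoints in kilobases. Diamonds are the complement genes and grey points their neighbours, without 2 neighbours of C2 that have only a clone identifier. The neighbours of C3 lay above 0 while C3 lay at -13.55.

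The genes closest in pattern were sought among 10793 genes with at least 100 normalized counts in either group, by the distance between log2 CPM values (with 0.5 added) centred over the 6 libraries. The added 0.5 CPM sets a floor, so genes with few or no counts in a group can come close whatever their fold change. The nearest to C3 were Aldh3a1, Thbs2 and Col8a1, at distances of 0.77, 1.10 and 1.66. For C1s they were the chemokine Cxcl12, the chemokine Cx3cl1 and the cytokine Il33, at 0.27, 0.28 and 0.32, although Cxcl12 and Cx3cl1 had 0 normalized counts with EMO and C1s 71.4 ± 8.17. C1r was closest to Etl4 and Nuak1, at 0.16 and 0.26, and Cd55 to Dennd4a, at 0.12, and Spata5, at 0.26.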

How the data were processed

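RNA of rat RA-FLS was sequenced in 6 libraries, 3 per group. Poly(A)-selected paired-end libraries were prepared and sequenced by the authors' provider. According to the methods and the submitters' processing notes, reads were cleaned (FastQC, Trimmomatic) and aligned with HISAT2 to Rnor_6.0. The authors deposited raw counts per gene without normalization, which were used for every result, with the deposited gene lengths for levels per length. The authors also deposited FPKM values, and, for their own DEseq comparison, group mean scores, log2 fold changes and p-values, none of which was used. The counting program, its strand setting and the annotation version are not given in the sources used here, so counts of overlapping genes are uncertain.

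The test was the robust quasi-likelihood test of edgeR 4.0.16 (R 4.3.3) after TMM scaling, over all genes that reached 10 counts in 3 or more libraries. The standard error is the log2 fold change divided by the square root of F. For genes near 0 counts in a group it understates the uncertainty of the estimate. Normalized counts are counts scaled to the mean effective library size. The common biological coefficient of variation was 0.121. DESeq2 1.42.0 was an alternative, as were other scalings, filters and thresholds, the replicate number as a block, and leaving out each library. Fits that left out 1 library but kept the tested genes were added after seeing the data. Both tools were tested on simulated counts. The simulation had fewer changed genes and smaller fold changes than these data. It therefore does not cover the scaling or the estimates for genes near 0 counts here. The methods describe 3 biological replicates, but the labels do not say whether they came from separate cultures, so p-values measure the spread between these libraries, which may be technical.

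The genes named were the 9 members, the other listed complement genes with at least 100 normalized counts in either group, transcription factors of complement genes, and neighbours within 100 kb that were DEGs at that level. C1q chains, Mbl1, Cd46, Masp2, Itgam, Itgb2, C4b, LOC103689965, Gpr108, Phb2, Emg1, Clstn3, AABR07044389.1 and the terminal components were named after their values were seen. The members and lists were chosen with earlier results of these data known. Col1a2, Pecam1, Mbl2, Cd59b and Csmd3 were not analysed here. A further listed transcription factor is not reported here. Promoter sequences came from RefSeq (GRCr8), and all other coordinates from the deposited table.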

Additional observations from a re-analysis of the deposited data

How the results depend on the processing

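The 5 tested complement genes kept their direction and their call under all alternatives in which they were tested, 18 each for C1r, C1s and Cd55, 15 for C3 and 14 for C2. Their log2 fold changes ranged from -13.93 to -12.98 for C3, from -6.14 to -5.91 for C1r, from -8.55 to -8.32 for C1s, from -3.30 to -2.78 for C2 and from 2.11 to 2.41 for Cd55. When one library was left out and the filter was applied again, the number of members called ranged from 3 to 5, since without any one of the TNF-α libraries C3 and C2 no longer had 3 libraries with 10 counts. On the fixed set of genes it was 5 each time. In the same fits the other complement genes called ranged from 9 to 12 when filtered again, and from 12 to 14 on the fixed set, and all genes called from 5406 to 6182 and from 6338 to 6462. The median over the members ranged from -6.11 to -5.91 and from -6.14 to -5.93. Of the other complement genes, 7 were called with at least 50 counts in 3 libraries, which left fewer genes to test, and 7 at an absolute log2 fold change over 2, beside 12. Of all genes, 6442 were called, 11008 with no fold change threshold and 3064 at an absolute log2 fold change over 2. The median of the members was -4.03 with no filter, which added 3 low genes, and -7.24 with at least 50 counts, which removed C2. Cd59 passed the fold change threshold under 5 of 18 alternatives, and C8g had an adjusted p of up to 0.14. Scaling by library totals alone moved the median of all genes from -0.01 to -0.12, which turned Rela and Nfkb2, neither past the threshold, to -0.01 and -0.03. The other genes named with a log2 fold change in the comparisons kept their direction under this scaling, under RLE scaling and with DESeq2.

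The replicate numbers are shared by both groups, and the correlations of same-numbered libraries' deviations were -0.00066 to 0.057, so the numbers were not taken as pairs. With the replicate number as a block, 5 members, 12 other complement genes and 6421 genes in all were called, and the median of the members was -6.01. Depth limits C4a, Cfd and Serping1, for which few counts were found. The zeros of Cfb are uncertain at any depth, since the counting of its overlapping gene models is not known.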
